A study of Mus musculus with 7 samples.

Results

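The interleukins and their receptors were taken as every entry of the gene count table whose symbol is Il, a number and optional further letters or digits. This rule found 69 of 28828 entries. They comprised 27 ligands, 36 receptor chains, 4 inhibitors or decoys (Il1rn, Il1r2, Il18bp and Il22ra2) and 2 other genes, the antisense transcript Il1bos and the amino acid oxidase gene Il4i1. RNA sequencing of whole lung compared 3 libraries from C57BL/6 mice with a knockout of Scgb3a2, a secretoglobin made mainly by airway secretory cells, with 4 libraries from C57BL/6 wild type mice. No treatment is given for either genotype, and the sources used here do not give age, sex, the allele or the number of mice per library. Libraries are called by genotype and title number, WT2, WT3, WT4 and WT6 for wild type and KO3 to KO5 for knockout. Because nothing states that each library is a separate animal, p-values measure only the spread between these libraries, which may be technical.

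Interleukins are secreted signals between leukocytes, epithelium and stroma, and each acts through a receptor of 1 or more chains on the receiving cell. Type 1 responses, driven by IL-12 and IL-18, lead to interferon gamma and the defence against intracellular microbes. Type 2 responses, carried by IL-4, IL-5, IL-13 and the epithelial alarmin IL-33, drive mucus, eosinophils and allergic airway disease, and type 17 responses, carried by IL-17A and IL-17F and maintained by IL-23, recruit neutrophils and act on airway epithelium. Most of these ligands come from rare leukocytes in resting lung, while many receptor chains are made by abundant structural cells. In whole tissue, fewer cells of a type and less RNA per cell cannot be told apart.

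The libraries held 13071262 to 16480006 counts, of which the members took 0.156% to 0.172%. Scgb3a2 was at 195 to 292 CPM (counts per library total multiplied by edgeR's TMM factor and expressed per 1000000) in wild type and 1.21 to 2.67 CPM in knockout lung, as the labels state. All 7 lung epithelium markers were detected, with summed levels of 16304 to 27863 CPM. WT6 and KO5 stood apart from the other libraries of their genotype in the same direction (Pearson r of their deviations from the group means 0.59 across genes, which are not independent replicates), so values that move most are also given without KO5. T cell markers summed to 18.2 to 27.0 CPM in wild type and to 27.9, 40.4 and 63.2 CPM in KO3, KO4 and KO5. B cell markers summed to 22.5 to 60.0 CPM in wild type and to 41.8, 89.3 and 202 CPM in the same knockout libraries. Plasma cell markers summed to 424 to 470 CPM in wild type and to 627, 1159 and 2172 CPM in KO3, KO4 and KO5.

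Il17a, Il17f and Il21, picked after their values were seen, are shown first by their promoters. Knockout counts of Il17a and Il21 lay above all wild type counts, and Il17f was seen in knockout lung alone, from 2 reads. Il20ra also had knockout counts above all wild type counts, and its promoter is not shown. Il17a and Il17f encode the paired cytokines of type 17 cells and lie 42.6 kb apart on chromosome 1, and Il21 encodes a cytokine of helper T cells that act on B cells. Each sequence runs 5′ to 3′ on the strand of the gene, from 250 bases before to 50 bases after the start given by RefSeq for GRCm38.p6. Capitals mark matches, on either strand, to the ROR response motif AGGTCA, the TATA box TATAAA and the NFAT core TGGAAA.

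Il17a, chr1:20730655-20730954, plus strand: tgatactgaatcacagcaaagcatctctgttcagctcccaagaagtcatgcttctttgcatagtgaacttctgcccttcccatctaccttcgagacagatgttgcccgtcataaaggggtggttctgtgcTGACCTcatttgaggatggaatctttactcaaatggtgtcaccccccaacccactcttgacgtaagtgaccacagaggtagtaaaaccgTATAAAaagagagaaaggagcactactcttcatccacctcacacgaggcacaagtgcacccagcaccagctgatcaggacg
Il17f, chr1:20784221-20784520, minus strand: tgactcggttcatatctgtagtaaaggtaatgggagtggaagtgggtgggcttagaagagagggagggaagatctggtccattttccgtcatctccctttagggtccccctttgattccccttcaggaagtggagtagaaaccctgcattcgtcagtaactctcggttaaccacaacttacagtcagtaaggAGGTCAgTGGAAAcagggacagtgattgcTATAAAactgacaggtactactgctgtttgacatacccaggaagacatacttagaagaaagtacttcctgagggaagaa
Il21, chr3:37232587-37232886, minus strand: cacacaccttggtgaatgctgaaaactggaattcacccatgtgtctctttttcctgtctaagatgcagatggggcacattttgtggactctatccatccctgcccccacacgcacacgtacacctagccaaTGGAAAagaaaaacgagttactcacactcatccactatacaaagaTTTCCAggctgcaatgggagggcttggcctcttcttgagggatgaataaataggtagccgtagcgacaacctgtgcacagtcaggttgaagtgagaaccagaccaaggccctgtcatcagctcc

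The Il17a window holds 1 ROR motif, read from the opposite strand and starting 120 bases before the start site, and 1 TATA box 31 bases before it. The Il17f window holds 1 ROR motif at 58, 1 NFAT core at 51 and 1 TATA box at 29 bases before the start. The Il21 window holds 2 NFAT cores and neither of the other motifs. None of the 3 windows holds the STAT site TTCNNNGAA. Among 32851 promoter windows of the same length, 16.3% hold the ROR motif, 13.6% the TATA box, 21.4% the NFAT core and 8.30% the STAT site, so that each motif is common. A match is a description of letters and not evidence of binding.

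No member passed the test between genotypes. Counts were high enough for edgeR's quasi-likelihood test in 49 of 69 members, namely 32 of 36 receptors, all 4 inhibitors and 13 of 27 ligands. Of these 49, 0 had a Benjamini-Hochberg adjusted p under 0.05, against 7 of all 19832 genes tested (0.0353%; 0.0252% higher and 0.0101% lower in knockout lung). DESeq2 also called 0 members, against 0.277% of the genes it tested, with 6 members at an unadjusted p under 0.05 (2.43% of all genes). Without the filter on low counts, edgeR called 0 of 68 members, against 0.0354% of all genes, with 8 at an unadjusted p under 0.05 (3.24% of all genes). In the filtered edgeR fit, 5 members (Il12rb1, Il7r, Il9r, Il1a and Il1rl1) had an unadjusted p under 0.05, against 2.87% of all genes tested. Knockout values did not overlap wild type values in 4 of the 49. They lay higher for Il12rb1 and Il7r (2.11% of all genes tested) and lower for Il1rl1 and Il22ra2 (1.61%).

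A p that misses the threshold does not show that levels were equal, and the intervals give how much could have been missed. The 95% interval of the change lay within 2-fold in either direction for 36 of 49 members and within 1.5-fold for 22. Receptors were bounded more often (26 of 32 within 2-fold) than ligands (9 of 13) or inhibitors (1 of 4). The median log2 fold change was -0.01 over ligands (6 positive, 7 negative), 0.05 over receptors (19 and 13) and 0.10 over inhibitors (3 and 1), beside -0.0068 over all genes tested. Of all genes tested, 48.0% had a positive change. Leaving out some 1 library turned the sign of the estimate in 26 of the 49 members. The sign turned in 10 members without WT4, 10 without KO4, 8 without KO5 and 4 without KO3. It turned in 5 without WT2, 5 without WT3 and 5 without WT6.

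**Figure D1:**
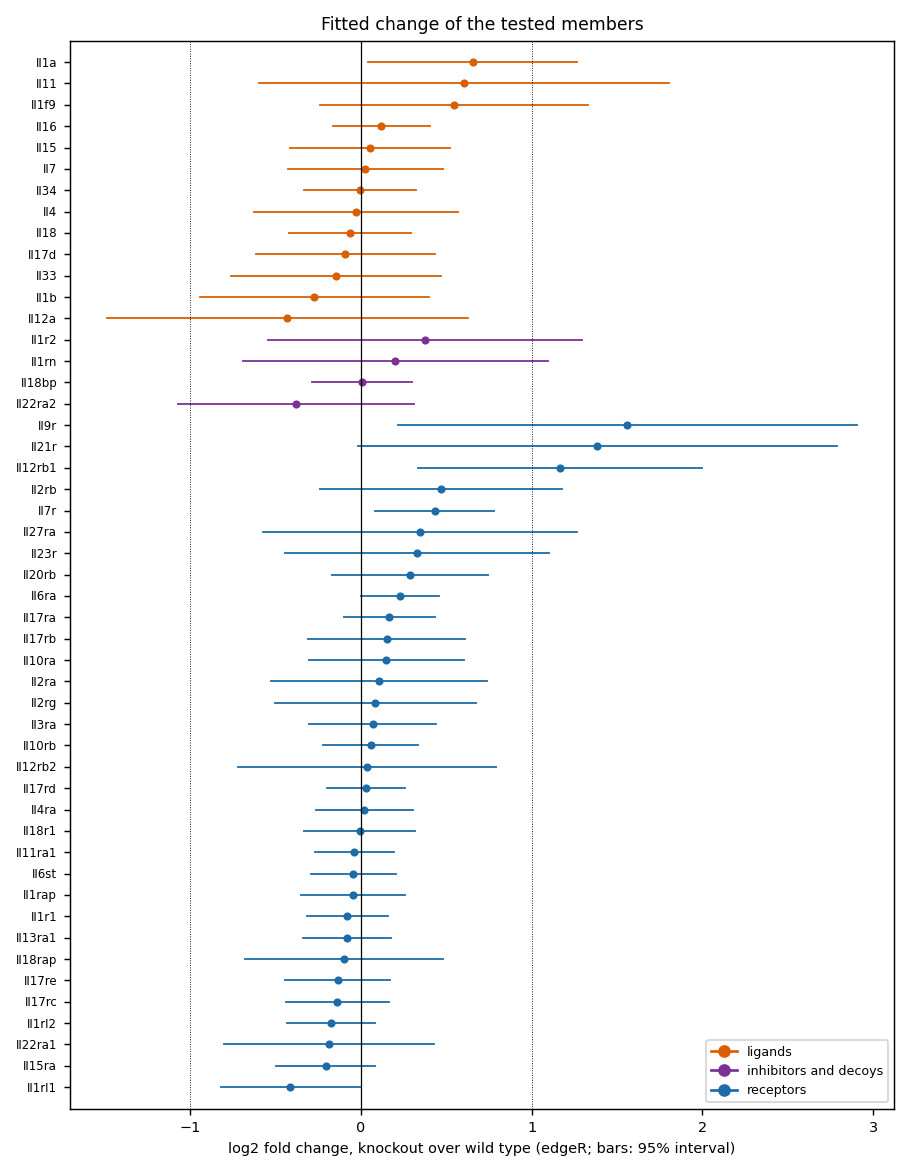
Fitted log2 fold change of each tested member (x axis, knockout over wild type, edgeR) with its 95% interval as a bar, grouped and coloured as ligands, inhibitors and receptors. Dotted lines mark 2-fold; Il9r, Il21r and Il12rb1 have the largest positive estimates (1.56, 1.39 and 1.17), while Il4ra, Il6st and Il18r1 lie within 0.05 of 0.

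Levels differed far more between members than between genotypes. Per kilobase of exon, which allows genes to be compared, the wild type median was 0.253 CPM per kb over ligands and 2.69 CPM per kb over receptors. Il6st, the gp130 chain shared by receptors of the IL-6 family, was the highest at 52.9 ± 5.1 CPM per kb (SD, n = 4), and its libraries did not overlap those of any other member. The next were the alarmin gene Il33 at 31.1 ± 7.8, the IL-4 and IL-13 receptor chain Il4ra at 25.8 ± 4.5 and the IL-18 receptor chain Il18r1 at 18.3 ± 1.7 CPM per kb, of which Il33 and Il4ra overlapped. They were followed by Il13ra1 (13.8), Il6ra (11.9), Il11ra1 (9.30), Il1r1 (8.81), Il10rb (8.55) and Il17rc (8.36), and from the sixteenth place on every member overlapped its neighbour in the order. The levels of 23 members rest on exons that overlap another gene, and Il11ra1 has near-identical copies, so their values are uncertain without a stated strand or multi-mapping rule.

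**Figure D2:**
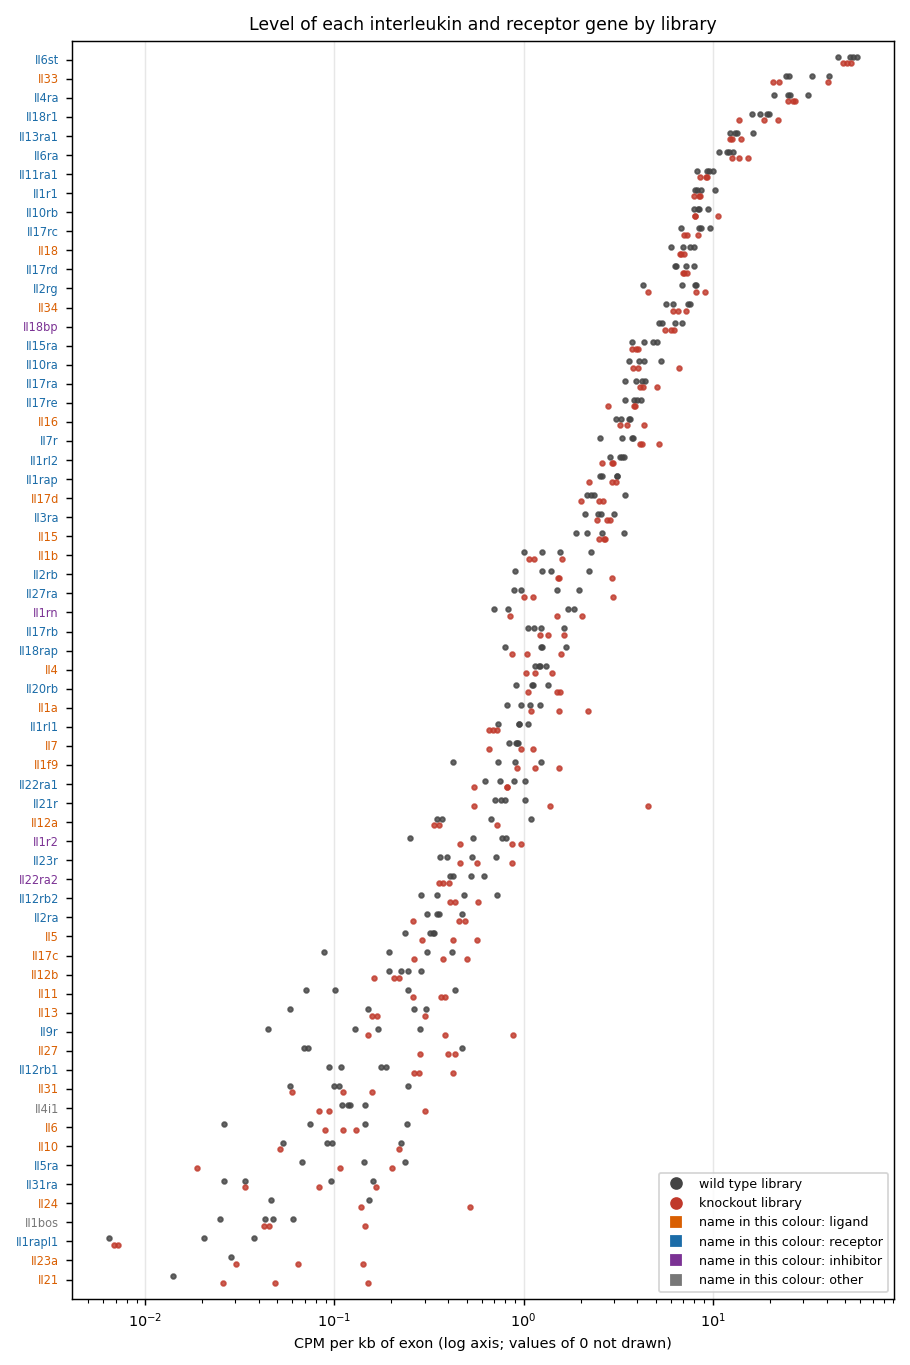
Level of each member in each library in CPM per kb of exon (x axis, log scale), ordered by wild type mean, with wild type libraries in grey and knockout libraries in red; values of 0 are not drawn, and members with a wild type mean of 0 are left out. The span between members covers more than the span between libraries of any 1 well-counted member, and ligands (orange names) fill most of the lower end.

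Ligands that resting lung makes in quantity were few. Il33, held in the nucleus of epithelial and endothelial cells until damage releases it, was at 70.8, 96.4, 119 and 73.3 CPM in WT2, WT3, WT4 and WT6 and at 60.2, 118 and 64.8 CPM in KO3, KO4 and KO5. WT4 and KO4 were the high libraries of each genotype, the groups overlapped, and the log2 fold change was -0.15 ± 0.27 (SE), or -0.52 without KO4. Il33 made up 54.6% ± 6.3 (SD, n = 4) of the summed level of all ligands in wild type and 49.97% ± 9.0 (SD, n = 3) in knockout lung. The chemoattractant Il16 was at 24.1 to 28.6 CPM in wild type and at 25.4, 27.6 and 34.2 CPM in knockout lung, with KO5 alone above the wild type range (0.12, or -0.0089 without KO5).

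Il34, a ligand of the colony stimulating factor 1 receptor, lay between 11 and 14.9 CPM in all 7 libraries. Il18, the inflammasome-processed partner of IL-12, lay between 6.21 and 8.24 CPM. The lymphocyte survival factors Il7 (3.71 to 6.35 CPM) and Il15 (4.28 to 7.72 CPM) and the IL-17 relative Il17d (2.56 to 4.36 CPM) also overlapped between genotypes, with log2 fold changes of 0.02, 0.05 and -0.09.

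Il1a, an alarmin that signals through Il1r1, was at 2.41, 1.91, 2.14 and 1.61 CPM in wild type and at 3.04, 4.32 and 2.17 CPM in knockout lung. KO3 and KO4 lay above every wild type library and KO5 did not, giving 0.65 ± 0.28 (log2, SE) with an unadjusted p of 0.0382 in edgeR that did not pass adjustment, and 0.36 without KO4. Il1b, which acts on the same receptor, was at 4.33, 1.91, 2.95 and 2.39 against 2.16, 2.03 and 3.04 CPM (-0.27 ± 0.31, or -0.0066 without WT2). Both genes lie on chromosome 2, 54.6 kb apart, and Il1bos overlaps Il1b on the opposite strand with 1 to 6 counts a library.

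Il1f9, the IL-36 gamma gene of stressed epithelium, was at 0.702 to 2.04 CPM in wild type and at 1.52 to 2.54 CPM in knockout lung (0.55 ± 0.36). Il11, a fibroblast cytokine, lay between 0.148 and 0.902 CPM (0.60 ± 0.55), and the IL-12 subunit gene Il12a between 0.572 and 1.86 CPM (-0.43 ± 0.48, from -0.86 without KO5 to -0.23 without KO4). Groups overlapped for each. Il6 had 1 to 8 counts and Il10 had 0 to 4 counts a library, too few for the test, and Il19 was listed at 0 in all 7 libraries.

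Among receptors of the IL-6 family, Il6st was at 611, 589, 642 and 509 CPM in wild type and at 567, 601 and 542 CPM in knockout lung. It gave 40.5% ± 2.2 (SD, n = 4) of the summed receptor level in wild type and 39.1% ± 0.57 (SD, n = 3) in knockout lung. The log2 fold change of -0.04 ± 0.11 came with an interval from -0.29 to 0.20. Il6ra, the IL-6 binding chain, was at 105, 111, 102 and 93.5 against 119, 133 and 109 CPM, with KO5 below WT3 (0.23 ± 0.10, unadjusted p = 0.0514 in edgeR). Il11ra1 overlapped at 36.7 to 45.1 CPM.

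Receptor chains of the common gamma family held the largest positive estimates. Il7r, the IL-7 receptor of lymphocytes, was at 15.4, 17.7, 11.8 and 17.4 CPM in wild type and at 19.6, 19.2 and 24.3 CPM in knockout lung. Every knockout library lay above every wild type library (0.43 ± 0.16, unadjusted p = 0.0193 in edgeR, exact permutation p = 0.0571). Il9r, the receptor for the mast cell and T cell growth factor IL-9, had 14, 10, 3 and 20 counts in wild type and 11, 30 and 60 counts in KO3, KO4 and KO5. KO3 lay inside the wild type range, and the log2 fold change of 1.56 ± 0.61 was 0.77 without KO5. Il21r, which binds IL-21 on B and T cells, was at 3.37, 2.36, 2.51 and 2.67 CPM in wild type and at 1.82, 4.57 and 15.2 CPM in knockout lung, so that KO3 lay below and KO5 far above every wild type library. Its log2 fold change of 1.39 ± 0.61 (unadjusted p = 0.0522 in edgeR) was 0.24 without KO5. The part of the higher T cell, B cell and plasma cell marker sums of KO4 and KO5 in these values was not tested.

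The other chains of this family overlapped between genotypes. The gamma chain Il2rg itself was at 10.2 to 19.4 CPM in wild type and at 19.4, 21.6 and 10.8 CPM in knockout lung, with WT6 and KO5 the lowest of each genotype. Il2rb, a chain of T and NK cells, was at 3.84 to 9.55 CPM in wild type and at 6.61, 6.48 and 12.6 CPM in knockout lung (0.47 ± 0.32, or 0.09 without KO5). The IL-2 receptor alpha chain Il2ra and Il15ra gave 0.11 ± 0.29 and -0.21 ± 0.13. Il3ra, which pairs with the common beta chain, gave 0.07 ± 0.17, and Il5ra had 0 to 12 counts a library, too few for the test.

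Il12rb1, shared by the receptors for IL-12 and IL-23 on T and NK cells, had 12, 6, 6 and 11 counts in wild type and 17, 17 and 24 counts in knockout lung. This is 0.722, 0.382, 0.443 and 0.772 CPM against 1.15, 1.08 and 1.73 CPM, and the groups did not overlap. The log2 fold change was 1.17 ± 0.38 (SE; 95% interval 0.33 to 2.0) with the smallest unadjusted p of any member, 0.0101 in edgeR, and an exact permutation p of 0.0286, the smallest the 35 splits allow, with an adjusted p of 1.0 over all genes. It stayed between 0.93 and 1.32 when any 1 library was left out. All 10 T cell markers had positive estimates (median 0.85, or 0.49 without KO5, 0 called) and 3 of 7 NK cell markers did (median -0.22), and their part in the values of Il7r and Il12rb1 was not tested. The partner chains Il12rb2 and Il23r overlapped (0.03 ± 0.34 and 0.33 ± 0.35, the latter 0.04 without KO5), as did Il27ra at 5.23, 3.12, 3.40 and 6.88 against 3.51, 3.94 and 10.4 CPM (0.35 ± 0.41, or -0.32 without KO5).

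**Figure D3:**
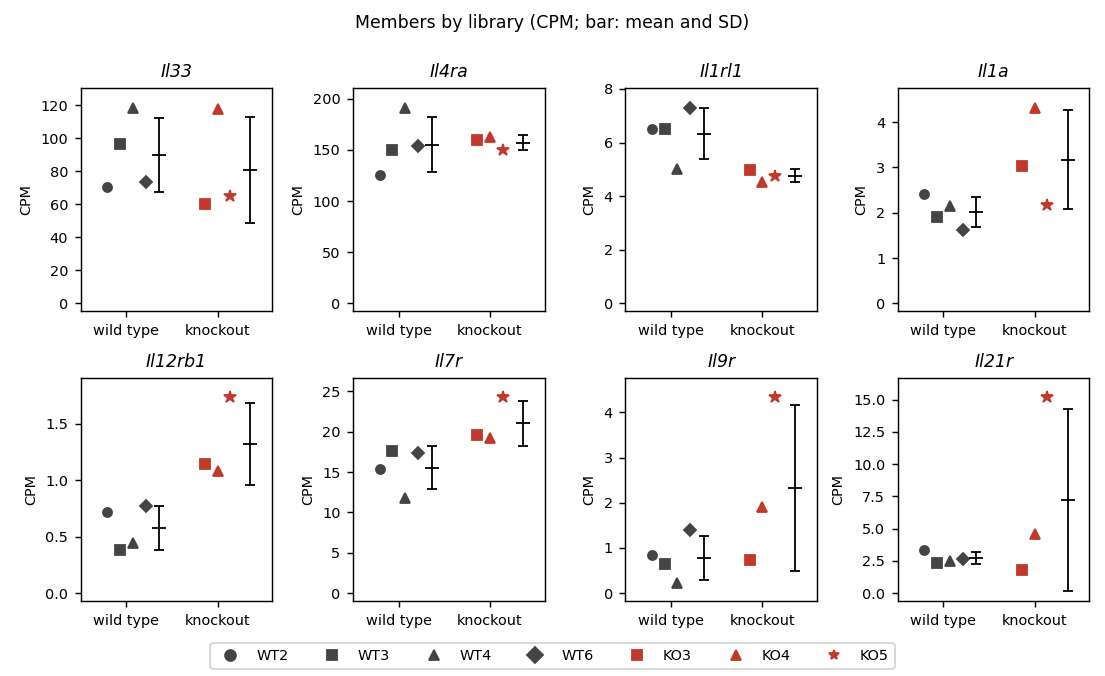
CPM of 8 members in each library (y axis, linear from about 0), wild type in grey and knockout in red, with 1 marker shape per library number and bars for mean and SD. Il12rb1 and Il7r are separated upward and Il1rl1 downward. For Il9r and Il21r, KO5 is highest and KO4 also lies above the wild type libraries. KO3 lies inside the wild type range for Il9r and below it for Il21r.

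Receptors of the IL-1 family lie in a row on chromosome 1 (Il1r2, Il1r1, Il1rl2, Il1rl1, Il18r1 and Il18rap), and 5 of these 6 genes had a negative estimate, with a median of -0.09. Il1rl1, the IL-33 receptor ST2 of mast cells and innate lymphoid cells, was at 6.495, 6.5, 5.02 and 7.30 CPM in wild type and at 4.99, 4.51 and 4.77 CPM in knockout lung. The groups were separated only by the small gap between WT4 and KO3, and the log2 fold change of -0.41 ± 0.18 had an unadjusted p of 0.0460 in edgeR and an exact permutation p of 0.0571. Summed markers of innate lymphoid cells 2 were at 221 to 294 CPM in wild type lung against 278, 267 and 265 CPM in the knockout. Those of mast cells, basophils and eosinophils were at 131 to 187 against 170, 180 and 118 CPM, and both sums overlapped. The first list includes Il1rl1 itself and Il7r, and most of its sum comes from its other genes. Most of the second sum is Gata2 (116 to 175 CPM in wild type). The mast cell protease gene Cpa3 was at 2.10, 1.47, 0.813 and 1.97 CPM against 1.21, 0.699 and 0.434 CPM (-1.02, unadjusted p = 0.0378 in edgeR, not past adjustment). The part of mast cells and of innate lymphoid cells in the value of Il1rl1 was not tested. Its neighbour Il18r1, 0.136 kb away, was at 85.2, 93.5, 95.4 and 77.8 against 90.2, 107 and 65.9 CPM (-0.0068 ± 0.15). The IL-1 receptor Il1r1 (-0.08 ± 0.11), the IL-36 receptor Il1rl2 (-0.18 ± 0.12), Il18rap (-0.10 ± 0.26) and the shared accessory chain Il1rap on chromosome 16 (-0.05 ± 0.14) overlapped between genotypes. Il1rapl1 had 0 to 5 counts a library.

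Tested receptors of the IL-17 and IL-10 families overlapped between genotypes. Il17ra, the chain common to IL-17 receptors, was at 29.7 to 38.0 CPM in wild type and at 35.8, 36.9 and 43.8 CPM in knockout lung (0.17 ± 0.12). Il17rc and Il17re, which pair with it and lie 0.668 kb apart on chromosome 6, both gave -0.14 ± 0.14. Il17rd lay between 69.6 and 87.2 CPM, and Il17rb, the IL-25 receptor, between 3.91 and 6.04 CPM. Il10ra (0.15 ± 0.21, or -0.15 without KO5), Il10rb (0.06 ± 0.13), Il20rb (0.29 ± 0.21) and the epithelial IL-22 receptor Il22ra1 (-0.19 ± 0.28) were the other tested chains.

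Of the inhibitors, Il18bp, which neutralises IL-18, lay between 15.7 and 20.7 CPM in every library. Il1rn, the IL-1 receptor antagonist, was at 4.57, 10.3, 9.53 and 3.86 CPM in wild type and at 8.30, 11.2 and 4.70 CPM in knockout lung, so that it varied more within each genotype than between them. Il22ra2, a soluble trap for IL-22, was at 1.32, 1.02, 1.55 and 1.05 against 1.01, 0.889 and 0.939 CPM. Its groups did not overlap by a margin of 1 library pair, WT3 and KO3, and the log2 fold change was -0.38 ± 0.32. Il1r2, the IL-1 decoy receptor, overlapped (0.38 ± 0.42, from 0.11 without WT2 to 0.63 without KO3).

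Grouped by response type, the medians lay close to 0 while single members ranged from -0.43 (Il12a) to 1.17 (Il12rb1) in type 1 and from -0.41 (Il1rl1) to 1.56 (Il9r) in type 2. The type 1 group had 7 of 9 members tested (3 positive, 4 negative, median -0.01), the type 2 group 7 of 12 (3 and 4, median -0.03) and the type 17 group 5 of 9 (2 and 3, median -0.14). Il12rb1 and Il12b, which serve both IL-12 and IL-23, were placed in type 1 only. The type 17 median therefore leaves out Il12rb1 (1.17) and depends on this choice. No type 17 ligand had enough counts for the test. Type 2 ligands are summed mostly from Il33, which was 97.4% ± 0.40 (SD, n = 4) of that sum in wild type lung. The cytokine genes of type 2 lymphocytes were low, and their groups overlapped. Il4 was at 1.504, 1.40, 1.48 and 1.61 CPM against 1.42, 1.27 and 1.73 CPM. Il5 had 6, 8, 7 and 7 counts against 13, 7 and 9, with KO3 and KO5 above every wild type library. Its ratio was 1.40 (95% counting interval 0.805 to 2.45). Il13 had 3, 5, 5 and 1 counts against 3, 3 and 5 (ratio 1.06, 0.437 to 2.52). These 3 genes share a cluster on chromosome 11, and Il31 had 1 to 4 counts. On the receptor side, Il4ra was at 126, 150, 191 and 153 against 159, 163 and 149 CPM (fold 0.83 to 1.24 as 95% interval), and Il13ra1 at 45.6 to 60.9 against 46.0, 52.2 and 47.0 CPM.

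Type 17 ligands (Il17a, Il17c, Il17f and Il23a) summed to 0.301, 0.127, 0.222 and 0.140 CPM in wild type and to 0.540, 0.699 and 1.16 CPM in knockout lung. This is 5, 2, 3 and 2 counts against 8, 11 and 16 counts. Each knockout library lay above each wild type library, from very few reads. The 5 type 17 receptors summed to 79.4 to 86.1 CPM in wild type and to 81.5, 80.9 and 86.8 CPM in knockout lung, and these ranges overlapped.

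**Figure D4:**
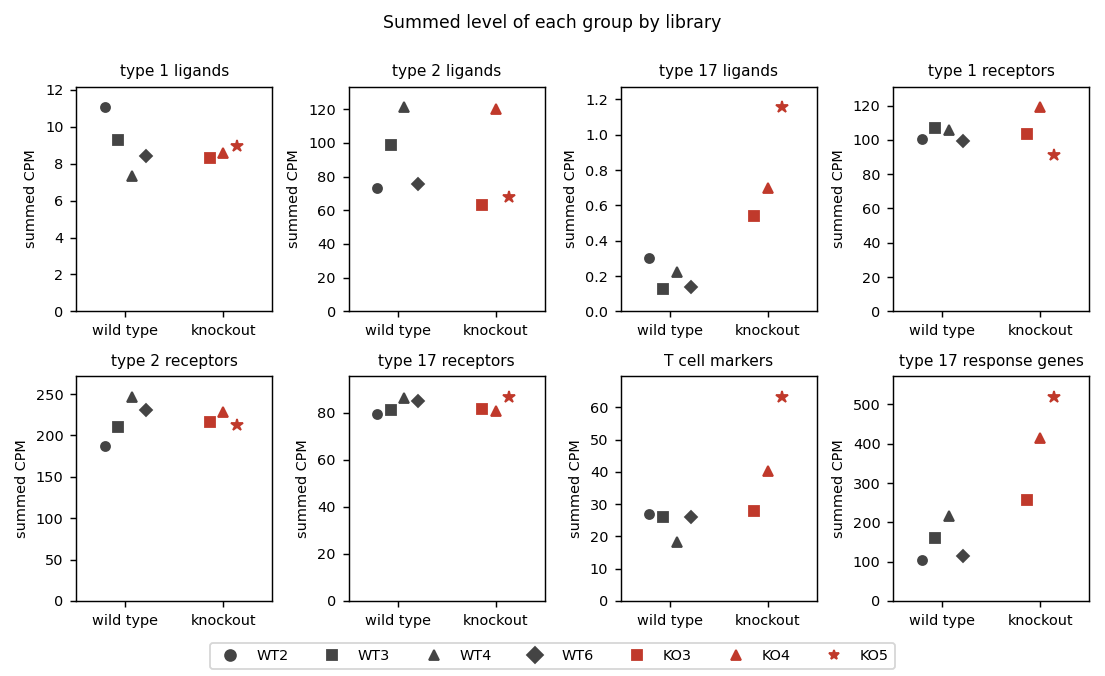
Summed CPM of the ligands and receptors of each response type, of T cell markers and of type 17 response genes (y axes, from 0) in each library, wild type in grey and knockout in red. Of the 8 sums drawn, only those of type 17 ligands, T cell markers and type 17 response genes have every knockout value above every wild type value, while receptor sums overlap.

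Among the 20 members outside the test, whose summed counts were 0 to 58, 4 lay higher in every knockout library (Il17a, Il20ra, Il21 and Il23a), against 2.86% of all genes with a count but outside the test. None lay lower in every knockout library (1.59%). Il17a had 0 counts in every wild type library, 3 in KO3, 2 in KO4 and 8 in KO5. Set against a floor of 3 counts over the wild type group this is 5.87-fold, and 3.28-fold without KO5. The exact counting interval of the ratio gives a lower limit of 4.13, and of 1.80 without KO5. Il20ra, a chain of the IL-20 receptor, also had 0 counts in wild type and 2, 1 and 1 in knockout lung, and its 4 reads give a lower limit of 0.894 on the ratio, so that counting error alone does not exclude equal levels. Of all 28266 genes with a count, 0.0884% showed this pattern of 0 in every wild type and at least 1 in every knockout library.

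Il21 had 0, 0, 1 and 0 counts in wild type and 2, 4 and 11 in knockout lung, a ratio of 23.0 (95% counting interval 3.61 to 962), or 11.8 (1.43 to 543) without KO5. Its exons overlap Gm12534 on the opposite strand, so without a stated strand setting some of these reads may belong to that gene. Il17f had 0 counts in wild type and 0, 1 and 1 in knockout lung, which is too few for a fold. Il23a had a single wild type count, in WT3, against 1, 5 and 2 (ratio 10.8, 1.45 to 480, or 6.29, 0.505 to 330, without KO4), and WT3 and KO3 are separated by scaling alone. The exact permutation p of Il17a and of Il21 was 0.0286, the lowest that 35 splits allow, and 1.0 when adjusted over all genes. In edgeR without a filter on low counts, their adjusted p was 0.887. The sums of T cell and plasma cell markers were also higher in each knockout library, and their part in these values was not tested. Intervals and floors cover counting error only.

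Other members outside the test overlapped. Il24 had 0, 1, 0 and 3 counts against 0, 3 and 10, a ratio of 4.40 (1.36 to 18.5) that was 1.47 without KO5. The IL-12 family gene Il27 had 8, 0, 1 and 1 counts against 6, 7 and 4 (ratio 2.30, 0.995 to 5.62). Il12b, which IL-12 and IL-23 share, had 5 to 8 counts in every library, and Il17c, an epithelial IL-17, had 1 to 5. Il31ra had 2 to 13 counts, and Il4i1 had 5 to 8 counts in every library but KO5, which had 17.

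**Figure D5:**
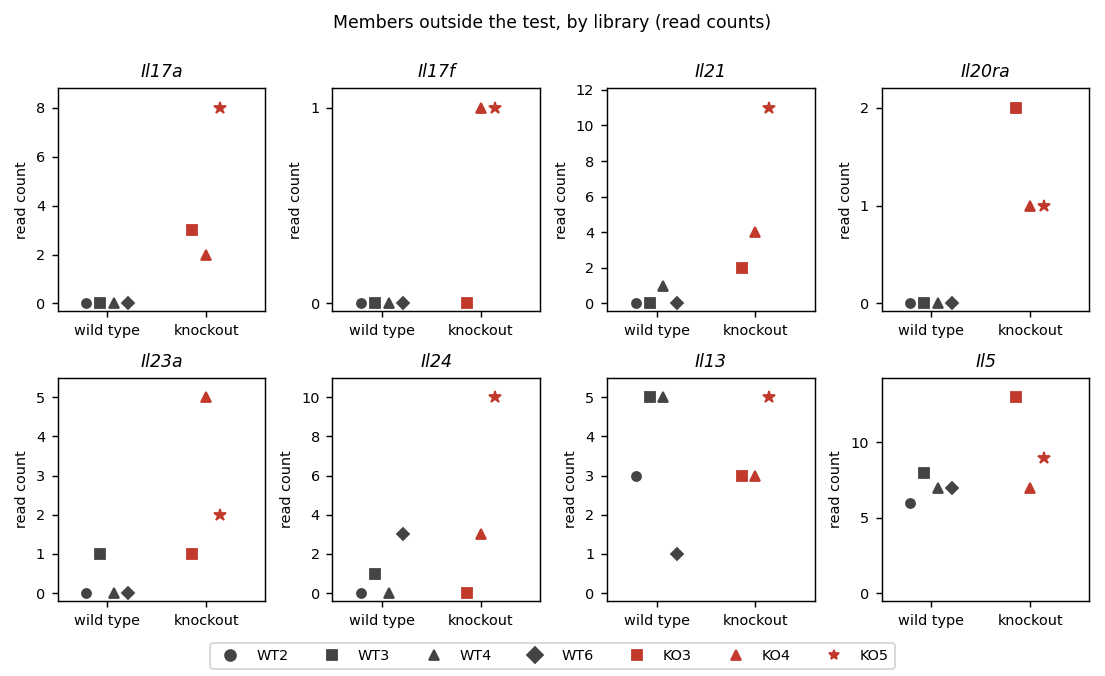
Read counts of 8 members outside the test in each library (y axes, from 0), wild type in grey and knockout in red. Il17a, Il21 and Il20ra have knockout counts above all wild type counts, with KO5 highest for Il17a and Il21, while Il13 overlaps. Il5 lies above all wild type counts in KO3 and KO5 but not in KO4, and Il24 in KO5 only.

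Other genes of the interleukin pathways gave no call in any list. Of 17 tested partner cytokines and receptors that carry other names, 7 were positive and 10 negative, with a median of -0.03, and the smallest p was that of Csf2rb2 (0.56), a near-copy of the common beta chain gene Csf2rb whose reads may be shared. JAK, STAT and SOCS genes gave 11 positive and 6 negative of 17 (median 0.04; Stat4 0.44, or 0.13 without KO5, Stat2 -0.19). Adaptors of the IL-1 and IL-17 receptors gave 10 and 4 of 14 (median 0.09; Zc3h12a 0.36, or 0.15 without KO5, Nfkbiz 0.25). Transcription factors and surface genes of helper T cells gave 11 and 1 of 12 (median 0.38), with Cd4 at 1.25 (adjusted p = 0.337 in edgeR) and Icos at 1.54 (0.526).

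Genes tied to each type of response, receptors such as Ccr6 among them, were read in the same way. Type 1 response genes gave 5 positive and 4 negative of 9 (median 0.17, or -0.20 without KO5; Cxcl9 1.36) and type 2 response genes 7 and 5 of 12 (median 0.01). Of the mucus-related genes among them, Clca1 was at 1.02 to 4.70 CPM in wild type and at 3.10, 107 and 117 CPM in KO3, KO4 and KO5, so that KO3 lay inside the wild type range (log2 fold change 4.63). Muc5ac was at 2.80 to 4.36 against 4.65, 17.7 and 79.0 CPM (3.24, or 1.66 without KO5), and neither passed adjustment. Fcgbp and Spdef from the same list gave 0.98 and 0.0011, or 0.53 and -0.74 without KO5. All 8 tested type 17 response genes were positive (median 1.04), with Ccl20, the ligand of Ccr6, at 3.33 (adjusted p = 0.151 in edgeR), Ccr6 at 2.64 (1.61 without KO5, with KO3 inside the wild type range) and the neutrophil-associated Lcn2 at 1.12. Their sum was 103 to 216 CPM in wild type and 256, 414 and 519 CPM in knockout lung, and 0 of the 8 passed the test. The part of the higher T cell and B cell marker sums of KO4 and KO5 in the values of Ccr6 and the other response genes was not tested.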

How the data were processed

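The deposited values are whole-number counts per gene, not normalized, in 7 libraries. Per the submitters' processing notes, STAR, DESeq2 and mm10 were named. The sources used here do not give the counting program, its strand setting or its annotation. Members and gene lists were chosen with earlier results of these data known. Named members are those not overlapping between groups, the 4 smallest p and 5 highest levels in each role, and the defining members of each response type; other members described with values (among them Il21, Il21r, Il20ra and Il24) were chosen after their values were seen. Il9, Il22 and Il25 were not among the entries that the symbol rule found, so no group or sum here includes them.

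Genes were tested with edgeR 4.0.16 (R 4.3.3; filterByExpr, TMM, robust quasi-likelihood, genotype only, two-sided), adjusted by Benjamini-Hochberg over 19832 genes at 0.05. SE was derived from the fitted change and its p. Exact permutation tests used log2(CPM + 0.1) over 35 splits. Exon lengths came from GENCODE M21 of GRCm38. Intervals of count ratios are exact binomial, and the floor is 3 counts over a group. The procedure was tested on simulated data. DESeq2 1.42.0, other scalings, no filter, a replicate block, a term for WT6 with KO5 and leaving out libraries were alternatives. Promoters came from RefSeq and matched 55 of 69 members.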

Additional observations from a re-analysis of the deposited data

Results flagged for a closer look

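In wild type lung, 3 of 31 members looked at had 1 library far from the other 3, where chance gives about 1 in 20. Il23a was at 0.0637 CPM in WT3, from 1 read, and at 0 in the others. Il27 was at 0.481 CPM in WT2, against 0 to 0.0739 CPM in the others. Il5 was lowest in WT2 at 0.361 CPM, against 0.491 to 0.517 CPM in the others. All 3 rest on 8 counts or fewer per library. A single read against 0 in the others always meets this rule, so the rate of 1 in 20 does not hold for counts this low.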

How the results depend on the processing

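No member passed the threshold under any of the 14 alternatives. Among the named tested members and Il21r, the smallest adjusted p was 0.184 (Il21r without KO3, edgeR). The count of genes called over the whole table was 7, and 60 with DESeq2, 29 with a term for WT6 and KO5, 14 with both left out, and 3 to 41 with 1 library left out. Nothing states whether same-numbered libraries are paired. Deviations correlated at 0.24 (WT3, KO3) and 0.20 (WT4, KO4), as much as differently numbered ones (0.22 and 0.24). Because WT6 and KO5 shift the group means, these values cannot decide whether libraries are paired. The fit with a replicate block, in which only WT3 with KO3 and WT4 with KO4 share a number, called 140. With 1 library left out, the median over receptors was 0.0092 to 0.069 that over type 17 members -0.14 to 0.0043, over ligands -0.023 to 0.039, over inhibitors -0.076 to 0.20, over type 1 members -0.12 to 0.080 and over type 2 members -0.069 to 0.016. Of 347 values of the named tested members and Il21r, 34 reversed, none above 0.17 in size. Members outside this set could reverse further, as Il27ra did from 0.35 to -0.32 without KO5. With the replicate block the reversed values in the set were Il13ra1 0.057, Il16 -0.033, Il18 0.018, Il18r1 0.054, Il1rn -0.031 and Il4ra -0.071. Scaling by totals gave Il18r1 0.0025 and Il34 0.010, the added term gave Il18bp -0.0052 and Il18r1 0.0076, and leaving out both libraries gave Il13ra1 0.037 and Il18r1 0.11. With 1 library left out, ranges were -0.14 to 0.014 for Il13ra1, -0.0089 to 0.21 for Il16, -0.18 to 0.076 for Il17d, -0.056 to 0.079 for Il18bp, -0.17 to 0.17 for Il18r1, -0.12 to 0.48 for Il1rn, -0.52 to 0.025 for Il33, -0.082 to 0.058 for Il34, -0.15 to 0.069 for Il4, -0.069 to 0.14 for Il4ra and -0.11 to 0.00097 for Il6st. The causes were not tested. Depth limits members of a few counts, where a single read moves a value.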
